A study of Mus musculus with 15 samples.

Results

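The heat shock chaperones described here are 10 mouse genes, and 9 of them had at least 1 probe on the array, out of 34816 gene names. They were listed by gene name, with earlier results of these data known. They are the inducible 70-kilodalton chaperones Hspa1a and Hspa1b and the stress-responsive partners Hsph1, Dnajb1, Hsp90aa1 and Hspb1. Hspa8, Hsp90ab1, Hspd1 and Hspe1 were grouped as constitutive chaperones. That name is a label for the grouping and does not mean that stress leaves these genes unchanged. All their non-control probes were taken, 14 in number. Hspa1b had no probe under its own name. The single Hspa1a probe is annotated to transcripts of both Hspa1a and Hspa1b, so its signal is given under Hspa1a and these genes cannot be told apart.

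The samples were CD4 T cells isolated by flow cytometry from the lamina propria, the connective tissue under the gut epithelium, of small intestines of male mice. There were 5 arrays from mice on a high fat diet for 10 days (HFD d10), 5 from mice on it for 30 days (HFD d30) and 5 from mice on normal chow (control). The diet was meant to alter the gut microbiota, and the series title calls the diet-fed mice prediabetic and diabetic. The labels name neither strain nor age, and do not say whether each sample came from a separate animal. The p-values below therefore measure the spread among arrays, part of which may be technical. All groups share the sort and a commercial RNA amplification before labelling with Cy3. Fewer cells of a type and less RNA per cell cannot be told apart in such bulk samples.

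Heat shock proteins bind unfolded polypeptides and help them fold, assemble or reach degradation. Members of the HSP70 family, such as Hspa8 and Hspa1a, work with J-domain partners that deliver clients, with nucleotide exchange factors such as Hsph1, and with HSP90, which finishes the folding of many kinases and receptors. Hspa8 is made at all times, while Hspa1a and Hspa1b are switched on by heat shock factor 1 in cells under proteotoxic stress, and the handling of a tissue, including enzyme digestion and sorting, is known to induce them too. In T cells, activation is also known to raise several chaperones.

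The probes of the inducible and the constitutive HSP70 are shown because the contrast between these genes rests on them. The Hspa1a probe lies on the minus strand at chr17:35107117-35107176, and the Hspa8 probe of highest signal lies on the plus strand at chr9:40612755-40613050, both in mm9 coordinates of the array files. The Hspa8 probe is 60 bases long and spans 296 genomic bases, so it crosses a splice junction. Capitals mark the bases the probes share when set against each other, 15 of 23 aligned bases with a longest shared run of 9 bases.
Hspa1a probe: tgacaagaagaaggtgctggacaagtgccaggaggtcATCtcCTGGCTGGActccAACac
Hspa8 probe: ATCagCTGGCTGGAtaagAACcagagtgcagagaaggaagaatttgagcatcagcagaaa
A second Hspa8 probe, shown because its signal did not follow the first, lies at chr9:40611142-40611201 on the plus strand.
Hspa8 second probe: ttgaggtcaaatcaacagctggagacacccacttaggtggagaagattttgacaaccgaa

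Heat shock factor binds inverted repeats of short units in promoters. The 250 bases before each transcript start in RefSeq (GRCm38.p6) were searched for GAANNTTC and TTCNNGAA, which read the same on both strands and can overlap each other. Either motif was found in 12.8% of 32851 promoter windows, 2 or more matches in 1.46% and 3 or more in 0.14%. The stretches of members with a match are shown with the matches in capitals.
Hspa1a, chr17:34972228-34972285, minus strand: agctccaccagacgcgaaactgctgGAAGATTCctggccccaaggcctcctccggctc
Hspe1, chr1:55088034-55088101, plus strand: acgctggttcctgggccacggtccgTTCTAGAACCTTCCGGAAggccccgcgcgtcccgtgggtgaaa
Hsph1, chr5:149636337-149636394, minus strand: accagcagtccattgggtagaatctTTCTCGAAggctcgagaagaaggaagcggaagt
Hspb1, chr5:135887777-135887854, plus strand: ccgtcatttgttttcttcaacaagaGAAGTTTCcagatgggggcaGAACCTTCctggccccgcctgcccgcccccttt
The Hspa1a and Hspa1b windows were identical at 296 of 300 bases and held 1 match each, 104 bases before the start. Hspe1 held 3 overlapping matches. Hspd1, its partner in the mitochondrial chaperonin, is transcribed in the other direction from the same stretch, and the window of 1 of its 2 annotated starts held the same 3 matches. Hspb1 held 2 matches, and neither window of Dnajb1 held one. Hspa8, Hsp90aa1 and Hsp90ab1 were not in the promoter table. A match describes letters in a window and not a bound site.

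Values are log2 signals of a probe minus the 75th percentile of the same array, so 0 is the signal that 75% of the array's probes lie under. A probe counts as detected where the scanner software called it well above background. The share of spots so called was 55.3% to 61.9% in HFD d10, 45.2% to 59.5% in HFD d30 and 50.9% to 82.0% in controls, and it touches several results below. All control arrays and HFD d10 replicates 1 to 3 were on slide 1, while HFD d10 replicates 4 and 5 and all HFD d30 arrays were on slide 2, so no slide held both HFD d30 and control arrays. Of 9 CD4 T cell markers on the array, including Cd4, Cd3e and Lck, 8 were detected on all 15 arrays and Cd247 on 14. Markers of other cells were detected too, with Gzma, Jchain, Csf1r, Itgam, Pigr and Krt18 detected on all 15 arrays and Ms4a1, Alpi and Cdh5 on 0. The summed levels of the lists of cytotoxic, B and plasma, myeloid, epithelial, stromal and red blood cell markers overlapped between each diet group and controls. Such a sum follows the brightest genes of a list, and the stromal and red blood cell lists had 2 and 1 tested genes. The overlap therefore cannot show whether the share of other cells differed between groups. In differences between groups, limma's moderated test over 25997 genes with Benjamini-Hochberg adjustment called 0 genes (0% of those tested) in each comparison; at an unadjusted p under 0.05 there were 673 genes (2.59%) in HFD d10 against control, 1337 (5.14%) in HFD d30 against control and 1067 (4.1%) in HFD d30 against HFD d10. Of the 8 members tested, 1 was among these in HFD d10 and in HFD d30 against control, Hspa1a, where 1.7% and 2.67% of all genes were lower at that threshold. In HFD d30 against HFD d10 they held 2 members, Hspe1 and Hsph1, where 1.82% of all genes were higher.

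Hspa1a, the stress-inducible HSP70, was, of the 8 chaperones tested, the one whose diet and chow arrays lay farthest apart. Its log2 signal was -2.33, -6.05, -2.88, -3.83 and -5.43 in HFD d10 replicates 1 to 5. It was -3.44, -2.15, -2.62, -4.07 and -4.52 in HFD d30 replicates 1 to 5, against -1.46, -0.07, -0.51, -1.01 and 0.30 in control replicates 1 to 5. Every diet array lay under every control array, while the HFD d10 and HFD d30 arrays overlapped. The gene was detected on 3 HFD d10 arrays (replicates 1, 3 and 4), on 2 HFD d30 arrays (replicates 2 and 3) and on all 5 control arrays. On the scanner's processed scale the signals ranged from 4.01 to 58.6 in HFD d10 and from 11.0 to 58.3 in HFD d30, against 82.2 to 382 in controls.

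Hspa1a averaged -4.10 ± 1.60 in HFD d10 and -0.55 ± 0.71 in controls (SD, n = 5 each), a log2 difference of -3.55 with a standard error of 0.78, or 11.7-fold lower. Since 2 of these HFD d10 arrays were not well above background, the fold rests partly on dim signal, and with dim values raised to the floor of detection the difference was -2.88. It had an unadjusted limma p of 0.000343 and an adjusted p of 0.744, so the difference did not pass the test over all genes. An exact two-sided permutation test of this gene alone, chosen after seeing the data, gave p = 0.00794 in HFD d10 and in HFD d30 against control. That is the smallest p that 5 arrays against 5 allow. It follows from groups that do not overlap, so it adds nothing to the values above. These tests are among 24 over the members and comparisons. Groups that did not overlap, with the diet lower, were found for 78 of the 25997 genes (0.3%), Hspa1a among them. HFD d30 averaged -3.36 ± 0.98 (SD, n = 5), a difference from control of -2.81 with a standard error of 0.78, or 7.01-fold lower. Here 3 of 5 HFD d30 arrays were not well above background, and with the floor the difference was -2.60. The test without the floor gave an unadjusted limma p of 0.0025 and an adjusted p of 0.894. In that comparison 104 genes (0.4%) were lower without overlap. HFD d10 and HFD d30 are set against the same control arrays, so these comparisons are not independent. HFD d30 minus HFD d10 was 0.74, with a 95% interval of -0.92 to 2.41.

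Within slide 1 the 3 HFD d10 arrays averaged -3.75 ± 2.01 (SD, n = 3) and the 5 control arrays -0.55 ± 0.71 (SD, n = 5), and these arrays did not overlap. With slide as a block the difference was -3.20 in HFD d10 against control and -1.93 in HFD d30 against control, and neither passed (limma adjusted p = 1 in both). The 95% interval under the block was -5.16 to -1.24 in HFD d10 and -4.90 to 1.05 in HFD d30, and the HFD d30 interval held 0, with an unadjusted limma p of 0.188, so Hspa1a no longer passed the unadjusted threshold there. The second value joins 2 within-slide steps through HFD d10, and slide and diet cannot be told apart in the direct comparison of HFD d30 with control. With normexp background correction, which here added an offset of 50 to every signal, the difference was smaller, -1.63 in HFD d10 and -1.37 in HFD d30. That offset is larger than most diet signals of Hspa1a, and an offset of this size narrows differences of dim signals by construction. In the deposited value table the difference was -1.29 and -1.49 over the 3 HFD d10 and 2 HFD d30 arrays with a value.

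**Figure D1:**
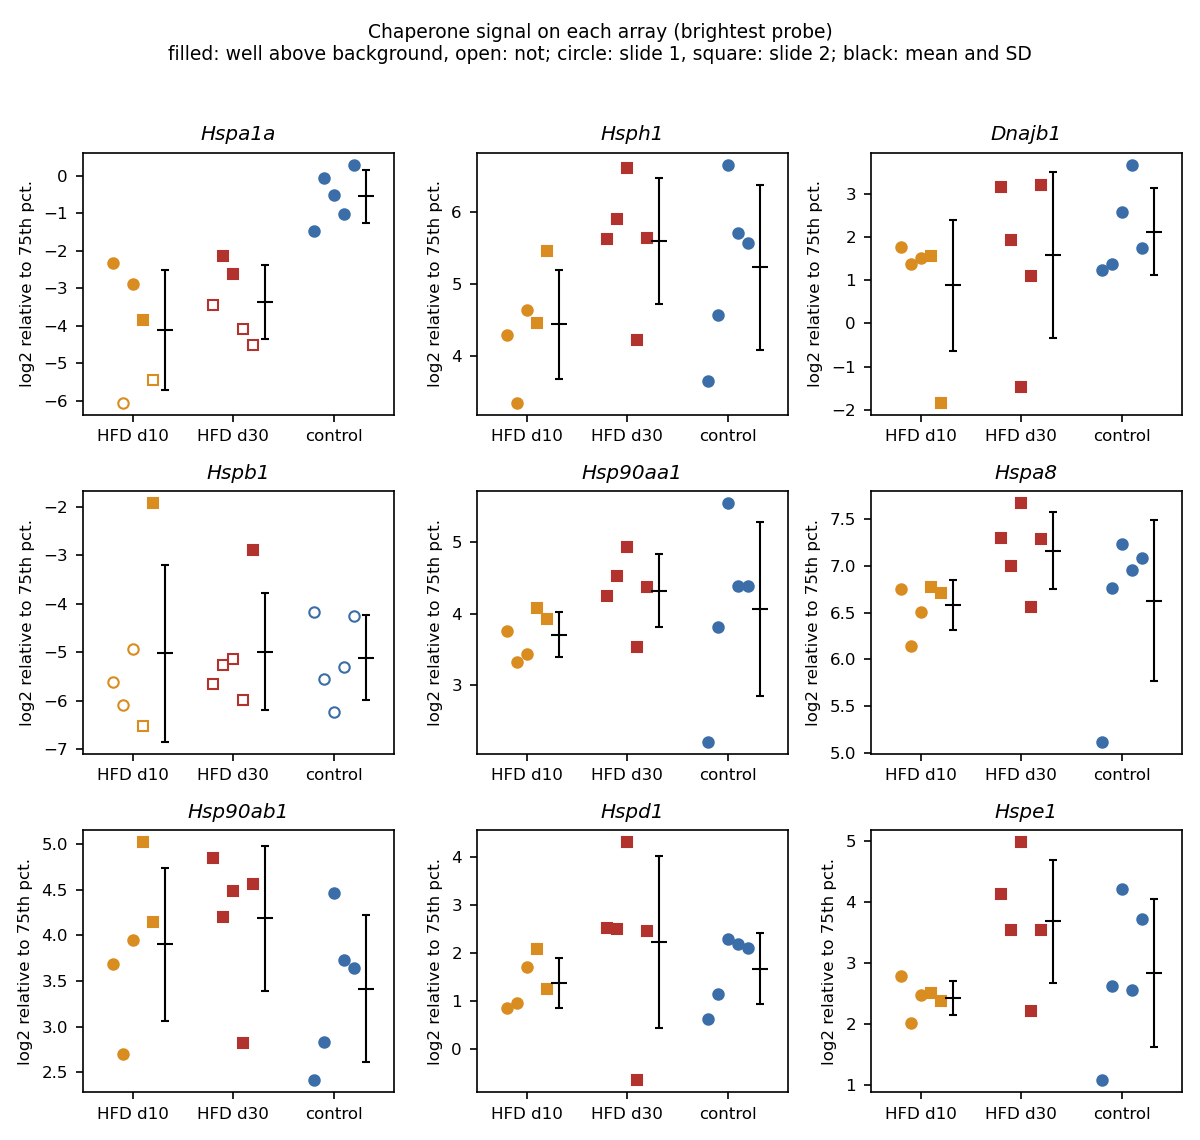
Log2 signal relative to the array's 75th percentile for the brightest probe of each of 9 chaperones, 1 point per array, with HFD d10, HFD d30 and control from left to right. Filled points were well above background and open points were not, circles are slide 1 and squares slide 2, and black marks give the mean and SD of 5 arrays. All 10 diet arrays of Hspa1a lie under the 5 control arrays, while the groups overlap for the other genes.

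Hspa8, the constitutive HSP70, a folding chaperone that also strips clathrin from vesicles, had the brightest probe of the members. Its log2 signal was 6.75, 6.14, 6.51, 6.78 and 6.71 in HFD d10 replicates 1 to 5. It was 7.30, 7.0, 7.67, 6.56 and 7.29 in HFD d30 replicates 1 to 5, and 5.12, 6.76, 7.23, 6.96 and 7.08 in control replicates 1 to 5. The groups overlapped, and control replicate 1 was the lowest array of all. The difference from control was -0.05 in HFD d10, with a 95% interval of -0.78 to 0.67, and 0.53 in HFD d30, with an interval of -0.19 to 1.25. The intervals hold 0, and they do not reach the size measured for Hspa1a.

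Hspa8 had 3 probes, and these did not give one answer at HFD d30. The probe starting at base 1812 of the transcript gave 0.53 and the probe at base 2044 gave 0.67, while the probe at base 730 gave -0.11 with a standard error of 0.64. The last probe followed the others loosely, with a correlation of 0.429 and 0.465 on deviations from group means over 15 arrays, against 0.948 between the other two. None of the 3 probes gave a difference in HFD d10 past 0.20 in size.

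Hsp90ab1, the constitutive cytosolic HSP90, had log2 signals of 3.69, 2.70, 3.95, 5.02 and 4.15 in HFD d10 replicates 1 to 5. The signals were 4.85, 4.20, 4.49, 2.82 and 4.56 in HFD d30 replicates 1 to 5, and 2.41, 2.83, 4.46, 3.73 and 3.64 in control replicates 1 to 5. Its difference from control was 0.49 ± 0.49 (SE) in HFD d10 and 0.77 ± 0.49 (SE) in HFD d30, with overlapping groups in both. Its stress-responsive paralogue Hsp90aa1 ranged from 3.33 to 4.08 in HFD d10 and from 3.53 to 4.93 in HFD d30, against 2.21 to 5.54 in controls. The differences for Hsp90aa1 were -0.36 and 0.25, each with a standard error of 0.48.

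Hspd1 and Hspe1 encode the chaperonin and co-chaperonin that fold proteins inside mitochondria. Hspe1 had log2 signals of 2.79, 2.02, 2.48, 2.51 and 2.38 in HFD d10 replicates 1 to 5. The values were 4.13, 3.54, 4.98, 2.21 and 3.55 in HFD d30 replicates 1 to 5, and 1.08, 2.62, 4.21, 2.56 and 3.72 in control replicates 1 to 5. HFD d10 arrays lay close together, while HFD d30 and control arrays spread widely. HFD d30 minus HFD d10 was 1.25 with a standard error of 0.56 for Hspe1, and a limma adjusted p of 0.999. Its 3 probes gave 0.85 to 1.29 in that comparison, and 2 of them overlap over 57 bases with 56 identical, so they do not count as separate measurements.

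Hspd1 spread most of the constitutive genes at HFD d30, with 2.52, 2.49, 4.30, -0.65 and 2.45 in replicates 1 to 5. It ranged from 0.85 to 2.08 in HFD d10 and from 0.63 to 2.28 in controls. Its difference from control was -0.30 in HFD d10 and 0.55 in HFD d30, each with a standard error of 0.69. Replicate 4 of HFD d30 was the lowest of that group for Hspd1, Hspe1, Hsp90ab1, Hsp90aa1, Hspa8 and Hsph1, and replicate 3 was the highest for Hspd1, Hspe1, Hsp90aa1, Hspa8 and Hsph1.

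Hsph1, an HSP110 that exchanges nucleotide on HSP70, had log2 signals of 4.29, 3.34, 4.64, 4.45 and 5.46 in HFD d10 replicates 1 to 5. The signals were 5.62, 5.90, 6.61, 4.21 and 5.63 in HFD d30 replicates 1 to 5, and 3.65, 4.57, 6.66, 5.70 and 5.56 in control replicates 1 to 5. Its difference from control was -0.79 ± 0.54 (SE) in HFD d10 and 0.36 ± 0.54 (SE) in HFD d30, and HFD d30 minus HFD d10 was 1.16 (limma adjusted p = 0.999). The second Hsph1 probe gave -1.05 in HFD d10 and -0.21 in HFD d30, so the direction at HFD d30 differed between probes.

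Dnajb1, the J-domain partner that delivers clients to inducible HSP70, had log2 signals of 1.77, 1.38, 1.51, 1.55 and -1.84 in HFD d10 replicates 1 to 5. It had 3.16, 1.93, -1.48, 1.10 and 3.20 in HFD d30 replicates 1 to 5, and 1.24, 1.37, 2.57, 3.67 and 1.74 in control replicates 1 to 5. A single low array in each diet group carried much of the spread. The difference from control was -1.24 ± 0.89 (SE) in HFD d10 and -0.54 ± 0.89 (SE) in HFD d30. Without HFD d10 replicate 5 the HFD d10 difference was -0.57, and without HFD d30 replicate 3 the HFD d30 difference turned to 0.23. Hspb1, a small heat shock protein that holds unfolded proteins and stabilises actin, was detected on HFD d10 replicate 5 and HFD d30 replicate 5, at -1.93 and -2.90, and on 0 control arrays. Its other values lay between -6.53 and -4.18, and it did not pass the filter on low signal, which left 8 members tested.

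**Figure D2:**
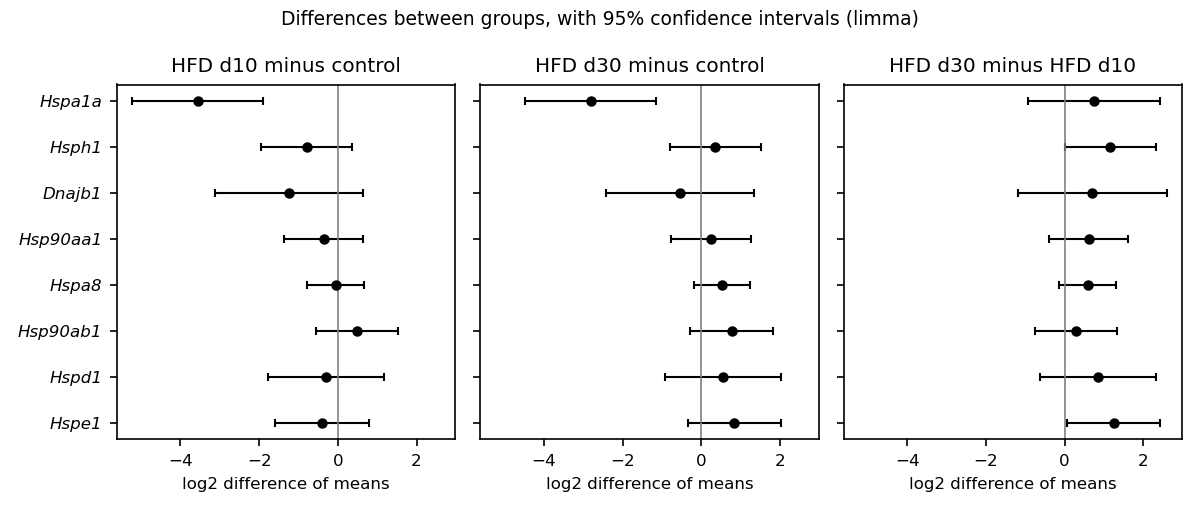
Log2 difference of group means for 8 tested chaperones, with points for the limma estimate and bars for the 95% confidence interval, in HFD d10 minus control, HFD d30 minus control and HFD d30 minus HFD d10. Without a slide block the intervals of Hspa1a lie under 0 in both diet comparisons with control, and those of the other genes there hold 0.

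The contrast between inducible and constitutive chaperones was taken per array as the Hspa1a value minus the mean of Hspa8, Hsp90ab1, Hspd1 and Hspe1. The Hspe1 window and 1 Hspd1 window held 3 heat shock motif matches each, against 1 for Hspa1a. The constitutive side may therefore hold stress-responsive genes, which was not tested. Its level has no meaning of its own, since different probes are subtracted, so differences between groups are given. The mean of the constitutive genes was 3.57 ± 0.41 in HFD d10, 4.31 ± 0.97 in HFD d30 and 3.64 ± 0.86 in controls (SD, n = 5 each). The contrast ran from -9.06 to -5.85 in HFD d10 and from -8.98 to -6.46 in HFD d30, against -5.06 to -3.41 in controls. It averaged -7.68 ± 1.45 in HFD d10, -7.67 ± 1.03 in HFD d30 and -4.19 ± 0.73 in controls (SD, n = 5 each). Both diet groups lay under the control group without overlap, with differences of -3.49 and -3.48 on the log2 scale. Hspa1a was well above background on 3 HFD d10 and 2 HFD d30 arrays, so the contrast rests partly on dim signal. The HFD d30 difference also holds the higher constitutive mean of that group, whose genes turned lower with the share of detected spots in the fit, as given below. The differences were smaller with normexp and its offset of 50, -1.53 and -1.95, and in the deposited table, -1.15 and -1.64. With slide as a block the HFD d30 difference was -2.12. The score was composed with the results of these arrays known and was given no test.

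Apart from the group means, 6 of the 8 tested chaperones moved together from array to array, and Dnajb1 and Hspa1a did not pass the test with any of them. Correlations were taken over 15 arrays on deviations from group means, with 100000 within-group permutations and Benjamini-Hochberg adjustment. Among 21 pairs of the 7 members other than Hspa1a, r ran from -0.14 to 0.921 with a median of 0.751. The 15 pairs of Hspa8, Hsp90aa1, Hsp90ab1, Hsph1, Hspd1 and Hspe1 all passed, with r from 0.657 to 0.921, by Pearson's r and by Spearman's rho. Such correlations were frequent on these arrays: r at least as high as the lowest of the 15 was found in 2.18% of pairs of all tested genes, and in 17.9% of pairs of the 4758 genes detected on all arrays and at least as bright as the dimmest of the 6. The 6 pairs with Dnajb1 did not pass. Hspa1a had r of 0.0508 to 0.463 with the 7 others and adjusted permutation p of 0.155 to 0.873, so 0 of 7 passed. This moved with the scaling: over the same 6 genes the median r of Hspa1a was 0.314, against 0.489 with quantile normalization, 0.441 with normexp and 0.0732 with the percentile over detected probes.

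**Figure D3:**
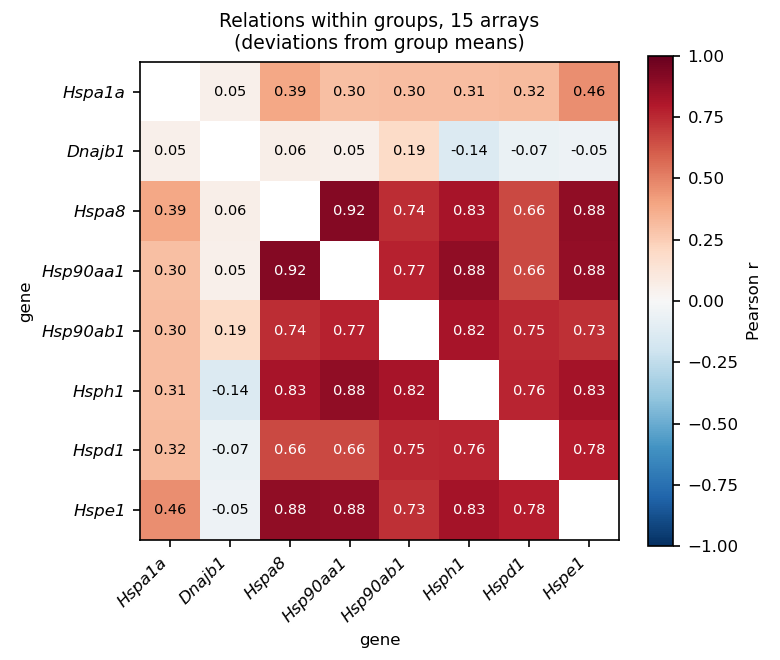
Pearson correlation between 8 chaperones over 15 arrays after each group's mean was removed, with colour and printed number giving r. The 6 genes at the lower right are correlated with each other, while Hspa1a and Dnajb1 in the first rows are weakly correlated with all.

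The same 6 genes followed the share of spots detected on the array, and this moved with the correlations. On deviations from group means, r with that share ran from -0.914 for Hspe1 to -0.683 for Hspd1, and all 6 passed the permutation test, with a highest adjusted p of 0.00293. A relation at least as strong as that of Hspd1 was found for 8.25% of all tested genes and for 38.6% of the 4758 genes at least that bright. Within slide 1 it was -0.946 for Hspe1 and -0.881 for Hspa8, and within slide 2 it was -0.934 and -0.971. Hspa1a had r of -0.291 and Dnajb1 -0.0884 with the share, and neither passed. For Hspa1a it was -0.565 with quantile normalization, -0.515 with normexp and 0.00972 with the percentile over detected probes. When the 2 arrays with the most extreme shares were dropped, r was -0.876 for Hspe1 and -0.803 for Hspa8. With the share's part removed from each gene, the median r of the 15 pairs was 0.415, with a range of 0.126 to 0.631, against 0.784 before. It was 0.553 with the percentile taken over detected probes and 0.603 with quantile normalization. Control replicate 1, with the highest share (82.0%), was the lowest of all 15 arrays for 4 of the 8 tested members. HFD d30 replicate 3, with the lowest share (45.2%), was the highest of all for 3.

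**Figure D4:**
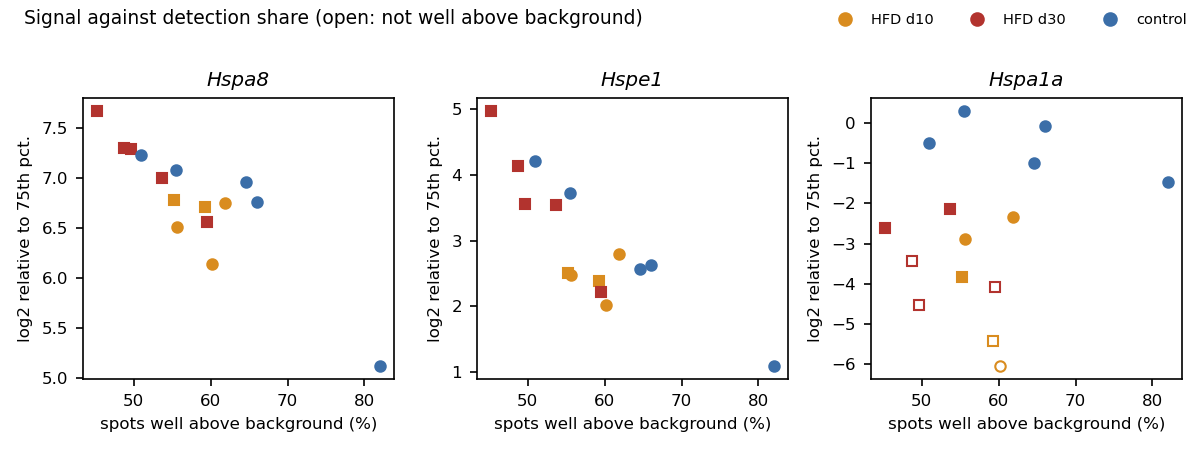
Log2 signal of Hspa8, Hspe1 and Hspa1a against the percentage of spots well above background, 1 point per array, coloured by HFD d10, HFD d30 and control, with circles for slide 1, squares for slide 2 and open points where the probe was not well above background. Hspa8 and Hspe1 are lower where the share is higher, whereas the diet arrays of Hspa1a lie under the control arrays. Shares of diet arrays reach up to 61.9% and those of controls down to 50.9%, so the groups overlap between these values only.

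HFD d30 had the lowest mean share, so the HFD d30 values of these 6 genes are also given with the share in the fit. With the share as a covariate in the limma fit, HFD d30 minus control turned to -0.29 for Hspa8, -0.84 for Hsph1, -0.51 for Hspe1, -0.71 for Hspd1, -0.88 for Hsp90aa1 and -0.20 for Hsp90ab1. The higher HFD d30 means of these genes depended on whether the share was in the fit. The share comes from the same arrays and differs between groups, so share and diet cannot be fully told apart, and a cause was not tested. Hspa1a kept its sign in both comparisons with control under every alternative run, from -4.00 to -1.29 in HFD d10 and from -3.35 to -1.37 in HFD d30.

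The genes whose pattern was most like that of Hspa1a over the 15 arrays, among 16192 tested genes with a RefSeq symbol, were Rufy3 with r = 0.881, Runx1 with 0.772, H2-Aa with 0.764, Ntng2 with 0.763 and Noxa1 with 0.762. These values hold the difference between groups and the spread within them, and with group means removed they were 0.626, 0.579, 0.396, 0.561 and 0.341. Rufy3 was well above background on 6 of the 15 arrays, Runx1 and H2-Aa on 8, Ntng2 on 10 and Noxa1 on 14, so much of the likeness lies in dim signal. By group, Rufy3 was detected on 0 HFD d10, 1 HFD d30 and 5 control arrays. Runx1 and H2-Aa were each detected on 1, 2 and 5 in that order, Ntng2 on 2, 3 and 5, and Noxa1 on 5, 4 and 5. Rufy3, Runx1 and H2-Aa thus passed the filter on low signal only with the control arrays, where they are high. They are a description, with no test.

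The rest of the chaperone network was read from 9 gene lists, and 0 genes of any list passed the adjusted test. A list gene said to be at a value has that log2 difference from control, or from HFD d10 in the last comparison. Of 5 heat shock factors, 2 had a higher and 3 a lower mean in HFD d10 than in control (median -0.50). All 5 had a lower mean in HFD d30 (median -0.51), beside medians of 0 over all 25997 genes in both. The HFD d30 count rested on single arrays. Without HFD d30 replicate 2 there were 2 of 5 higher (median -0.20), and without control replicate 3 also 2 of 5 (median -0.42). It also includes Hsf1, which was dim there. Hsf1, Hsf2 and Hsf5 would not have passed the filter on low signal without the control arrays. Such a filter can favour lower diet means, so the counts of this list are a description only. Hsf1, the factor that switches on Hspa1a, was at 1.24 in HFD d10 and was detected on 3 HFD d10, 0 HFD d30 and 3 control arrays, so no difference is given for HFD d30. Hsf2, detected on 1 HFD d10 and 4 control arrays, was at -1.99 in HFD d10 and Hsf4 at -0.51 in HFD d30, the members with the smallest p there. Of 17 J-domain co-chaperones, 11 had a higher and 6 a lower mean in each diet group than in control, with medians of 0.07 and 0.21, and without control replicate 1 there were 8 higher in each, with medians of -0.08 and -0.02. Dnaja4, a J-domain protein, was the list's member with the smallest p: its mean was -2.11 in HFD d10 and -2.13 in HFD d30, against 1.76 in controls. Its differences were -3.87 (limma adjusted p = 1) and -3.89 (limma adjusted p = 0.927). Dnaja4 was detected on 4 HFD d10, 2 HFD d30 and 5 control arrays, so the HFD d30 difference rests largely on dim signal. In HFD d10 its arrays did not overlap those of controls, as for 78 of the 25997 genes (0.3%) that were lower there.

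Among 10 other HSP70 and HSP110 genes, 5 had a higher and 5 a lower mean in HFD d10, and 4 and 6 in HFD d30. These counts rested on single arrays. Without control replicate 1, 2 were higher and 8 lower in each diet group (medians -0.27 and -0.08). Without control replicate 3, 6 were higher in HFD d10 and 7 in HFD d30 (medians 0.32 and 0.29). Hspa12b, an HSP70 relative of endothelium, was at 2.34 in HFD d10 (limma adjusted p = 1) and at -0.53 in HFD d30. It was detected on 5 HFD d10, 2 HFD d30 and 4 control arrays. Hspa1l, a relative of Hspa1a best known from testis, was detected on 2 arrays of each group, at -0.25 in HFD d10 and 2.41 in HFD d30 (limma adjusted p = 0.927). Hsp90b1, the HSP90 of the endoplasmic reticulum, was at 0.28 and 0.65, while the mitochondrial HSP90 Trap1 was at -1.97 and -1.54 with a standard error of 1.73, wider than the second difference. Trap1 was detected on 3 HFD d10, 2 HFD d30 and 4 control arrays, so its differences rest partly on dim signal.

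Of 11 nucleotide exchange and BAG factors, 8 had a higher and 3 a lower mean in both diet groups than in control, with medians of 0.15 in HFD d10 and 0.85 in HFD d30. Grpel1, the exchange factor of mitochondrial HSP70, was at 1.87 in HFD d10 and 2.56 in HFD d30 (limma adjusted p = 1 and 0.927). Of 10 HSP90 co-chaperones, 3 had a higher and 7 a lower mean in HFD d10, and Cdc37, which brings kinases to HSP90, was at -3.04 (limma adjusted p = 1). Cdc37 was detected on 3 HFD d10, 3 HFD d30 and 5 control arrays, so its differences rest partly on dim signal. In HFD d30 it was at -0.55, 4 of the 10 had a higher mean, and Unc45a, which helps myosin fold, was at 1.02. All 8 subunits of TRiC, the cytosolic chaperonin that folds actin and tubulin, had a higher mean in HFD d30 than in control (median 0.68), and 5 of 8 did in HFD d10 (median 0.08). Its subunit Cct7 was at 0.80 in HFD d30 and 1.02 in HFD d10. Among the 6 tested small heat shock proteins, Hspb7 was detected on 2 HFD d10, 0 HFD d30 and 3 control arrays. Hspb9 was detected on 4, 1 and 4 in that order and Cryaa on 2, 1 and 4. All 6 had a lower mean in both diet groups, partly in dim signal, with medians of -0.27 and -0.79, and Hspb6 was at -0.70 and -0.95. Hspb7 and Cryaa would not have passed the filter on low signal without the control arrays, which can favour lower diet means. The counts of higher and lower means rested partly on control replicate 1, the array with the highest detection share. Without it 4 of 8 TRiC subunits had a higher mean in HFD d30 (median 0.04) and 2 of 8 in HFD d10 (median -0.46). Without it 6 of 11 BAG and exchange factors had a higher mean in each diet group (medians 0.03 and 0.25), and 4 of 6 small heat shock proteins had a lower mean in HFD d10 (median -0.01) and 5 of 6 in HFD d30 (median -0.39).

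Immediate early genes, which like Hspa1a respond quickly to cell handling, were listed beside the chaperones. Of 17 tested, 5 had a higher and 12 a lower mean in HFD d10 than in control (median -0.21), and 11 a higher and 6 a lower mean in HFD d30 (median 0.68). Without control replicate 1 the medians were -0.52 and 0.17. Zfp36, Egr2 and Ier2 would not have passed the filter on low signal without the control arrays, which can favour lower diet means. Zfp36, whose product destabilises cytokine messages, was at -2.20 in HFD d10, where it was detected on 1 array against 4 control arrays, and Btg2, which slows the cell cycle, at 0.89 in HFD d30. Atf3, a stress-induced transcription factor, was at -1.46 in HFD d10 and 1.97 in HFD d30. The summed level of this list ranged from 5.50 to 6.80 in HFD d10 and from 5.84 to 7.23 in HFD d30, against 4.22 to 7.44 in controls, with overlapping groups.

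Between HFD d30 and HFD d10 the lists also held 0 genes past the adjusted test. Of the 17 immediate early genes 15 had a higher mean in HFD d30 (median 0.61, beside 0.06 over all genes), and Atf3 was at 3.43. The counts were 7 of 8 for TRiC, with Cct6a at 1.12, and 9 of 10 for the HSP90 co-chaperones, with the cyclophilin Ppid at 1.67. Without HFD d30 replicate 1 they were 4 of 8 (median 0.19) and 10 of 10 (median 0.29). Without HFD d30 replicate 3 they were 5 of 8 (median 0.20) and 7 of 10 (median 0.17). Of the heat shock factors 2 of 5 had a higher mean. The J-domain list had 9 of 17 higher, the BAG list 6 of 11, with Bag1 at 0.86, the other HSP70 list 5 of 10, with Hspa12b at -2.87, and the small heat shock proteins 1 of 6. The list members with the smallest p that were well above background on 0 HFD d30 arrays, Hsf1, Dnajc3 and Hspb7, are given no difference. Each limma adjusted p of the genes given a value here was 0.958 or higher.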

How the data were processed

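CD4 T cells were profiled on 1-colour Agilent arrays (60-base probes, 62976 spots, 15 arrays, 5 per group). Per the labels' protocols, RNA was amplified by a commercial procedure and labelled with Cy3. Per the file headers, the authors extracted spots with Feature Extraction 10.7.3.1 and its GE1_107_Sep09 settings on an mm9 grid, and the deposited intensity values are its background-corrected processed signals. The authors also deposited a table of log2 values. Its scaling and centring are unknown, and it served as an alternative only.

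Control spots were removed (59305 spots of 55681 probes remained), 1 damaged spot line was left out, spots of a probe were averaged, and log2 signal minus each array's 75th percentile was taken. A gene was its probe of highest mean signal. Of 34816 gene names, 25997 that were well above background on at least 5 of 15 arrays were fitted with limma 3.58.1 (R 4.3.3; group means, trended eBayes, Benjamini-Hochberg, threshold 0.05), after the script was tested on simulated data. No spot was saturated. The number of arrays limits the precision. Promoter sequences are RefSeq's. Named genes were the members, the smallest-p gene of each list in each comparison, and Hsf1, with the 5 genes most correlated with Hspa1a. Replicate numbers did not pair the samples. Members and lists were chosen with earlier results of these data known. Alternatives were other background corrections, normalizations, filters, blocks, a detection covariate and leaving out each array.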

Additional observations from a re-analysis of the deposited data

Results flagged for a closer look

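Of 24 sets of 5 arrays checked for a sample far from the rest (8 tested chaperones in 3 groups), 2 were flagged, and chance flags about 1 in 20. Control replicate 1 had an Hspa8 log2 signal of 5.12, where the nearest control array had 6.76, and the gap was 0.777 of the group's range. This array also had the highest share of detected spots, 82.0%. HFD d10 replicate 5 had a Dnajb1 log2 signal of -1.84, where the nearest HFD d10 array had 1.38, and the gap was 0.891 of the range.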

How the results depend on the processing

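Hspa1a kept its direction against control in all 25 alternatives at each time. Depth is limited by signal over background: 5 of 10 diet arrays gave Hspa1a no signal well above background, so its fold changes there rest on dim spots, and a floor at the detection limit gave -2.88 in HFD d10 and -2.60 in HFD d30. The contrast of Hspa1a with the constitutive genes moved to -1.53 (HFD d10) and -1.95 (HFD d30) with normexp, whose offset of 50 narrows differences of dim signals. It moved to -1.15 and -1.64 in the deposited table, and to -2.12 (HFD d30) with slide as a block. The cause was not tested. Genes called over the whole array numbered 0, and 1 in HFD d30 against control with slide as a block.

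Directions turned as follows. In HFD d30 minus control, quantile normalization gave Hsph1 -0.03 and Hsp90aa1 -0.14, and the percentile over detected probes -0.02 and -0.13; the deposited table gave Hspa8 -0.14, Hsph1 -0.31, Hspd1 -0.17, Hsp90aa1 -0.34 and Hsp90ab1 -0.06; slide as a block gave Hsph1 -0.49, Hsp90aa1 -0.24, Hsp90ab1 -0.37 and Dnajb1 1.16; the detection covariate gave Hspa8 -0.29, Hsph1 -0.84, Hspe1 -0.51, Hspd1 -0.71, Hsp90aa1 -0.88 and Hsp90ab1 -0.20. In HFD d30 minus HFD d10, Hsp90ab1 was -0.02 (quantile), -0.01 (detected probes), -0.20 (deposited), -0.40 (slide) and -0.27 (covariate), Hsp90aa1 -0.05 (deposited) and -0.04 (covariate), and the deposited table gave Hspa1a -0.20 and Dnajb1 -0.22. The exact permutation tests, the correlations under other scalings and with the share removed, their shares over all genes and the lists with single arrays left out were chosen after seeing the data. So was leaving out control replicate 1 and HFD d30 replicate 3 together, which gave Hsph1 -0.29, Hspd1 -0.23, Hsp90aa1 -0.37 and Dnajb1 0.01 in HFD d30 minus control. The cause was not tested.

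Leaving out 1 array at a time gave Hspa1a -4.00 to -3.07 (HFD d10) and -3.11 to -2.52 (HFD d30). In HFD d10 minus control, Hspa8 ran from -0.43 to 0.10 and Hsp90aa1 from -0.82 to 0.01. In HFD d30 minus control, Hsph1 ran from -0.03 to 0.72, Hsp90aa1 from -0.21 to 0.62 and Dnajb1 from -0.94 to 0.23; Hsp90ab1 in HFD d30 minus HFD d10 ran from -0.02 to 0.62. Genes called ran from 0 to 1 in HFD d10 minus control (1 without HFD d30 replicate 4) and from 0 to 2 in the other comparisons (2 without HFD d10 replicate 4). With the replicate number as a block, Hspa1a was -3.55 (limma adjusted p = 1) and -2.81 (limma adjusted p = 0.9) and 0 genes were called. Same-numbered arrays correlated at -0.126 to 0.153 in 15 pairs, with 1 over 0.1.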
